A study of Mus musculus with 4 samples.

Results

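The genes described here are 35 genes of the lysosome, the acidic organelle in which a cell breaks down protein, sugar chains and lipid. They were chosen by name: proteases, glycosidases, lipid hydrolases and sterol exporters, membrane glycoproteins, subunits of the proton pump, and the channel Mcoln1, the transcription factor Tfeb and progranulin (Grn). All 35 were among the 14082 genes with a deposited count, and all 35 entered the test of 13358 genes. By the submitters' description the samples were ovalbumin-specific CD8 T cells taken by cell sorting out of E.G7 tumours under the skin, E.G7 being a mouse T lymphoma line that expresses ovalbumin. Hosts were 6 to 10 weeks old. Both groups carried the floxed allele: 2 libraries, labelled WT, came from Smad4-fl/fl mice and 2 libraries, labelled KO, from Cd8-cre Smad4-fl/fl mice, in which Cre is driven by Cd8 regulatory sequence. WT and KO below are these labels. Nothing in the labels ties the 2 libraries of a group to different mice. The p-values therefore reflect only how far these libraries spread, which may be technical.

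A lysosomal enzyme is made in the endoplasmic reticulum, tagged with mannose 6-phosphate in the Golgi and carried to the lysosome, where low pH activates it. The proton pump, or V-ATPase, sets that pH, and TFEB raises the transcription of many genes of the organelle. In cytotoxic lymphocytes the granules that hold perforin and granzymes are secretory lysosomes, and in macrophages lysosomes digest what the cell has engulfed.

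Summed counts ranged from 24366540 to 26218277 per library. Smad4, the targeted gene, had 752 and 736 counts in WT libraries and 779 and 1088 in KO libraries (log2 fold change 0.19, 95% confidence interval -0.12 to 0.49, edgeR adjusted p = 0.397), so it was not lower in the libraries labelled KO. A gene-level count includes exons that Cre does not remove and RNA of any other cells in the sample. The part of either in the Smad4 counts was not tested. Some markers of macrophages stood above Cd8a, a marker of the labelled cell type, per length. Lyz2, a lysozyme gene that macrophages share with other myeloid cells, was at 8516 to 9068 FPKM (reads scaled by gene length and library size) over the 4 libraries. C1qb, a complement gene of macrophages named after its values were seen, was at 1165 to 1301 FPKM. Cd8a, which encodes a chain of the CD8 coreceptor and was likewise named after its values were seen, was at 125 and 121 FPKM in WT and 63.8 and 65.8 FPKM in KO. Whole lists did not follow this order. Their median FPKM was 77.6 for 16 monocyte and macrophage markers and 87.9 for 10 T cell markers. T cell markers were present, and 7 of 10 were lower in the libraries labelled KO. Over all tested genes, 11.0% were lower and 10.1% higher, which is the share to set beside each marker list. The summed level of T cell markers was 3190 to 3245 CPM (counts scaled to library size with TMM factors) in WT and 2197 to 2215 CPM in KO. Lck, a T cell kinase, fell 1.39-fold (edgeR adjusted p = 0.000160), and Cd3d had a log2 fold change of -0.14 (edgeR adjusted p = 0.123). The E.G7 tumour is itself a T lymphoma, and the part of tumour cells in the T cell marker sums was not tested. Monocyte and macrophage markers, led per length by Lyz2 and Apoe, summed to 20312 to 21093 CPM in WT and 21045 to 21646 CPM in KO, with 4 of 16 higher and 3 lower. Neutrophil markers, led by S100a8 and S100a9, summed to 727 to 728 and 1993 to 2043 CPM, with 9 of 14 higher and 0 lower (edgeR, also 0 lower at an unadjusted p under 0.05). The dendritic cell list, led by Ccl22 and Siglech, summed to 377 to 393 and 575 to 594 CPM (4 of 10 higher, 1 lower). The natural killer list, led by Tyrobp, which myeloid cells share, and Klra7, summed to 638 to 642 and 717 to 722 CPM (1 of 5 higher, 1 lower). Tyrobp made up nearly all of this sum, at 630 and 634 CPM in WT and 718 and 713 CPM in KO, and was the higher gene. Klrc2, named after its values were seen, was the lower gene (log2 fold change -1.89, edgeR adjusted p = 0.00223). The stromal list, led by Col3a1 and Col1a1, summed to 561 to 603 and 637 to 697 CPM (2 of 8 higher, 1 lower). The mast cell list (Cpa3, Kit), the B cell list (Blnk, Cd79b) and the CD4 T cell list (Cd4, Foxp3) summed to 71.2 to 75.5, 36.8 to 40.5 and 49.4 to 51.8 CPM in WT and to 129 to 151, 54.2 to 59.5 and 88.2 to 91.2 CPM in KO, with 2 of 3, 3 of 6 and 1 of 4 tested genes higher. Of mast cell genes named after their values were seen, Mcpt4 and Tpsb2 were at 0 counts in both libraries labelled WT. Mcpt8, another, had 7 and 10 counts in WT and 4 and 0 in KO. Mcpt4 and Mcpt8 were not tested, and Cpa3 had 1366 and 1500 counts in WT. Mitochondrial genes took 10.4% and 10.2% of counts in WT and 6.57% and 6.99% in KO. In bulk samples, fewer cells of a type and less RNA per cell cannot be told apart.

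Sequences near the start sites of 6 of the 35 genes share the letters TCACGTGA, the core of the element that TFEB and its relatives bind. The letters were not used in choosing the genes. They are not independent of that choice, since TFEB raises the transcription of many genes of the organelle. RefSeq windows (GRCm38.p6, 250 bases before to 50 after a start site) were at hand for 30 of the 35 genes. Each site is given 5′ to 3′ on the gene's strand, as 30 bases with the shared letters in capitals.
Ctsa, chr2:164833749-164833778, plus strand: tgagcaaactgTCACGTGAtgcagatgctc
Ctsa, chr2:164833766-164833795, plus strand: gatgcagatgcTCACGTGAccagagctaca
Ctsd, chr7:142387908-142387937, minus strand: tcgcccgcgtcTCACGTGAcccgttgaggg
Mcoln1, chr8:3500462-3500491, plus strand: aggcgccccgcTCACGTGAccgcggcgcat
Atp6v0d1, chr8:105566050-105566079, minus strand: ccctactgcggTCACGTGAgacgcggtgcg
Atp6v1a, chr16:44139373-44139402, minus strand: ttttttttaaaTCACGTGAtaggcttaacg
Gla, chrX:134601215-134601244, minus strand: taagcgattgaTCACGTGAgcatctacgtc
Gla, chrX:134601182-134601211, minus strand: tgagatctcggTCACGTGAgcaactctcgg

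These letters are the same on both strands and contain the shorter CACGTG. Of the 30 genes with a window, 6 held TCACGTGA (20%), against 2.12% of 10632 tested genes with a window. The shorter CACGTG was in 11 of 30 (36.7%), against 11.3%, and the form of TCACGTGA with a G before it and a C after it was in 0 of 30, against 0.743%. A match is a description of the letters and not evidence of binding. None of the 6 genes that held TCACGTGA passed the test between groups, against 21.2% of all tested genes. A set of 6 genes is too small to tell these shares apart. The log2 fold changes of these genes ran from -0.048 for Ctsd to 0.21 for Mcoln1. The 6 genes that did pass had a window without TCACGTGA, although that of Ctsl held the shorter CACGTG.

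The 35 genes were abundant in every library. Their median lay at the 93.8th percentile of all listed genes by mean FPKM as deposited, and 6 of them were among the 100 highest genes in each library. Cathepsin S (Ctss), a cysteine protease of antigen-presenting cells that trims the invariant chain of MHC class II, was highest, at 1383 and 1476 FPKM in WT and 1307 and 1226 FPKM in KO. It was followed by cathepsin B (Ctsb, 981 to 1042 FPKM) and cathepsin Z (Ctsz, 831 to 984 FPKM), whose ranges over the 4 libraries met. Cathepsin D (Ctsd, 668 to 705 FPKM) and legumain (Lgmn, 639 to 707 FPKM) also overlapped. Tfeb was lowest, at 3.57 to 4.51 FPKM, below the sterol exporter Npc1 (4.92 to 5.49 FPKM) and the calcium channel Mcoln1 (6.42 to 7.96 FPKM). The enzymes among the 35, the lowest being Glb1 at a mean of 21.1 FPKM, stood above Tfeb per length. Some lysosomal hydrolases outside the 35 did not, such as Ctsf and Galc at means of 0.549 and 0.942 FPKM. The 35 genes together took 2.28% and 2.33% of the counts of WT libraries and 2.44% and 2.40% of those of KO libraries, of which Ctsb alone gave 26.3% to 27.5%. With TMM factors their sums were 23445 and 24064 CPM in WT and 23689 and 23360.2 CPM in KO, so the groups overlapped. Lyz2, which macrophages share with other myeloid cells, ranked 4th by FPKM, above all 35, and the part of myeloid cells in these levels was not tested.

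**Figure D1:**
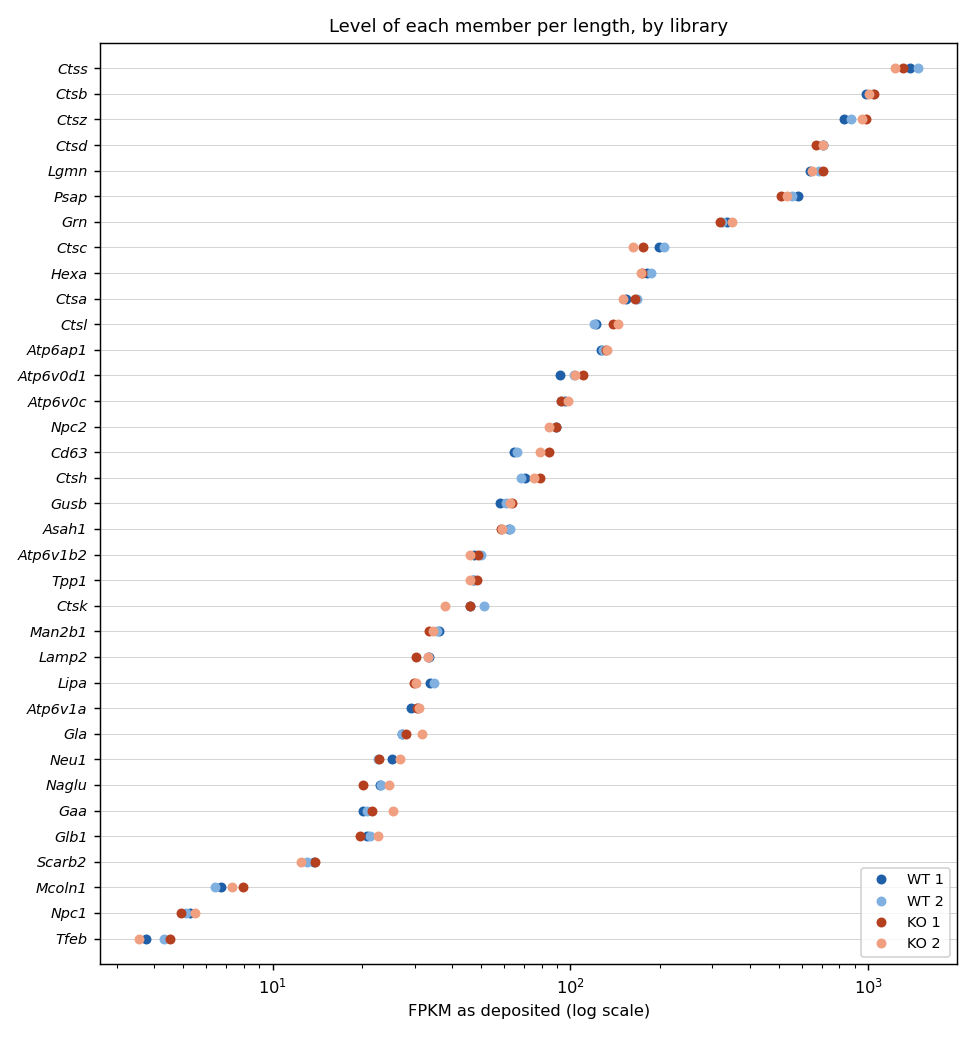
FPKM as deposited, on a log axis, for each of the 35 genes in each of the 4 libraries (blue shades, WT; red shades, KO), ordered by mean. Ctss lies at 1226 to 1476 FPKM and Tfeb at 3.57 to 4.51 FPKM, and the spread between genes is far wider than the spread between libraries.

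Between the groups the 35 genes changed little. Relative to WT, the KO libraries had 3 higher (Cd63, Ctsl and Ctsz), 3 lower (Ctsc, Ctss and Lipa) and 29 that did not pass (edgeR quasi-likelihood, Benjamini-Hochberg adjusted p under 0.05 over 13358 genes). That is 17.1% of the list, against 21.2% of all tested genes (10.1% higher and 11.0% lower). Their median log2 fold change was -0.0075, against -0.0037 over all tested genes, and the median size of the change was 0.081 against 0.217. The 95% confidence interval lay within 1.5-fold in either direction for 35 of 35, against 52.8% of all tested genes, and over the 35 the bounds ran from -0.43 to 0.44 on the log2 scale. Standard errors were 0.051 to 0.14 for these genes, with a median of 0.057 against 0.136 over all tested genes. In CPM the groups did not overlap for 20 of the 35 (9 with both KO libraries above and 11 below), or 57.1% against 59.8% of all tested genes. Replicates differed by a median of 0.048 on the log2 scale in WT and 0.089 in KO, with Tfeb the most variable in both. With library totals alone as the scaling, 8 were higher and 1 was lower, and over all genes higher calls went from 47.9% to 67.5% of calls. Their median then was 0.078, against 0.082 over all tested genes.

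**Figure D2:**
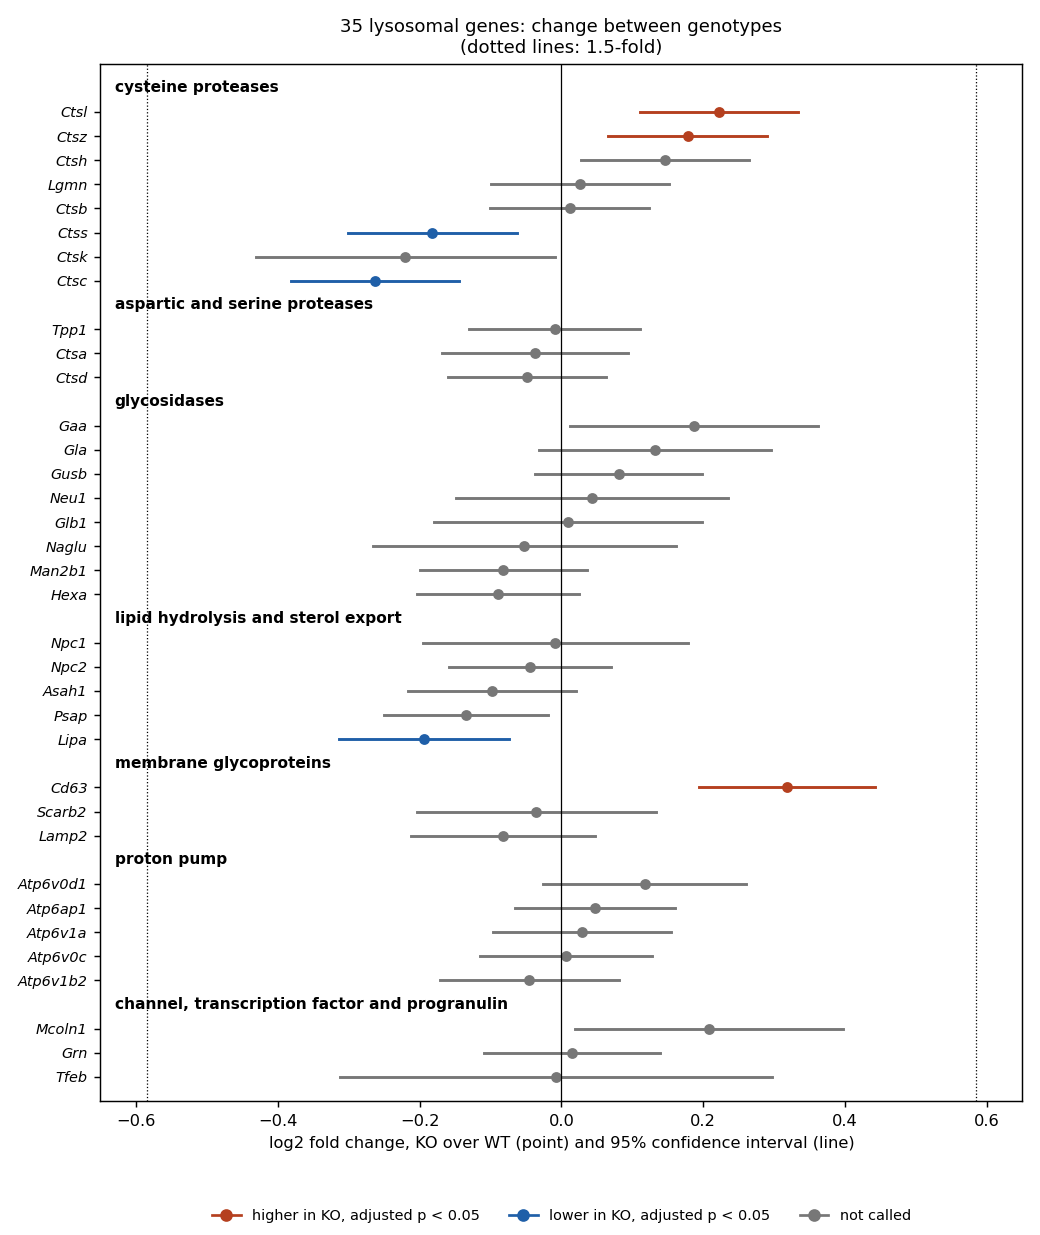
Log2 fold change, KO over WT, with its 95% confidence interval for each of the 35 genes, grouped by role. Red marks the 3 genes that rose, blue the 3 that fell, and every interval lies inside the dotted lines at 1.5-fold.

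Cysteine proteases held 4 of the 6 genes that passed, 2 in each direction, among 8 tested. That is 50% of this small class, against 21.2% of all tested genes. Its median standard error was 0.055, against 0.136 over all tested genes, so smaller changes could pass. Cathepsin C (Ctsc), the dipeptidase that removes the propeptide of granzymes in cytotoxic granules and of serine proteases in neutrophils, was at 1199.7 and 1238 CPM in WT and 1054 and 979 CPM in KO. Both KO libraries were below both WT libraries. It fell 1.20-fold (log2 fold change -0.26, confidence interval -0.38 to -0.14, edgeR adjusted p = 0.00445), and it passed under all 12 alternatives of fit, scaling, filter or libraries. Ctsc lies on chromosome 7 from 88278085 to 88310888, plus strand, of GRCm38, the assembly also called mm10.

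Cathepsin S was at 1954 and 2078 CPM in WT and 1832 and 1722 CPM in KO, again with no overlap. It fell 1.13-fold (log2 fold change -0.18, interval -0.30 to -0.063, edgeR adjusted p = 0.0327). Among other scalings and left-out libraries, the call was lost with library totals alone, without WT replicate 2 and without KO replicate 2 (edgeR adjusted p = 0.227, 0.279 and 0.198), within a range over alternatives of 0.0108 to 0.279. Ctss lies on chromosome 3 from 95526786 to 95556403, plus strand, next to the gene of cathepsin K (Ctsk, 95499256 to 95509362, plus strand), the collagen-degrading enzyme of osteoclasts. Ctsk was at 72.6 and 80.5 CPM in WT and 72.0 and 59.5 CPM in KO. Its KO libraries lay below WT by a margin that was narrow for KO replicate 1, and its log2 fold change of -0.22 did not pass (edgeR adjusted p = 0.136), although it did without KO replicate 1 (edgeR adjusted p = 0.00194, log2 fold change -0.36).

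Cathepsins L and Z were higher in the libraries labelled KO. Cathepsin L (Ctsl), an endopeptidase that works in most cell types, was at 820.4 and 806 CPM in WT and 929 and 968 CPM in KO. Both KO libraries were above both WT libraries. It rose 1.17-fold (log2 fold change 0.22, interval 0.11 to 0.33, edgeR adjusted p = 0.00818) and missed the threshold in 1 of 12 alternatives, without WT replicate 2 (edgeR adjusted p = 0.0573). Ctsl lies on chromosome 13 from 64359337 to 64370890, minus strand, and its exons overlap a processed pseudogene and an antisense gene. Cathepsin Z, a carboxypeptidase, was at 1246 and 1305 CPM in WT and 1463 and 1423 CPM in KO, with no overlap. It rose 1.13-fold (log2 fold change 0.18, interval 0.066 to 0.29, edgeR adjusted p = 0.0270), a call that, among other scalings and left-out libraries, was lost without WT replicate 1, WT replicate 2 or KO replicate 1 (edgeR adjusted p = 0.256, 0.0528 and 0.130). Its range over alternatives was 0.00239 to 0.256. Ctsz lies on chromosome 2 from 174427493 to 174439039, minus strand, and shares exon sequence with Nelfcd on the opposite strand, so its value is uncertain.

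The other cysteine proteases did not pass. Cathepsin B, which digests proteins broadly, was at 6174 and 6518 CPM in WT and 6506 and 6287 CPM in KO. The groups overlapped, and the log2 fold change was 0.011 (interval -0.10 to 0.12, edgeR adjusted p = 0.911), although some exon sequence is shared with Fdft1 on the opposite strand. Cathepsin H (Ctsh), an aminopeptidase, was at 331 and 318 CPM in WT and 366 and 352 CPM in KO. Both KO libraries were higher, but the log2 fold change of 0.15 did not pass (edgeR adjusted p = 0.0798), except with library totals alone (edgeR adjusted p = 0.00851). Legumain, the asparaginyl endopeptidase that matures several cathepsins, had a log2 fold change of 0.026 (edgeR adjusted p = 0.805).

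**Figure D3:**
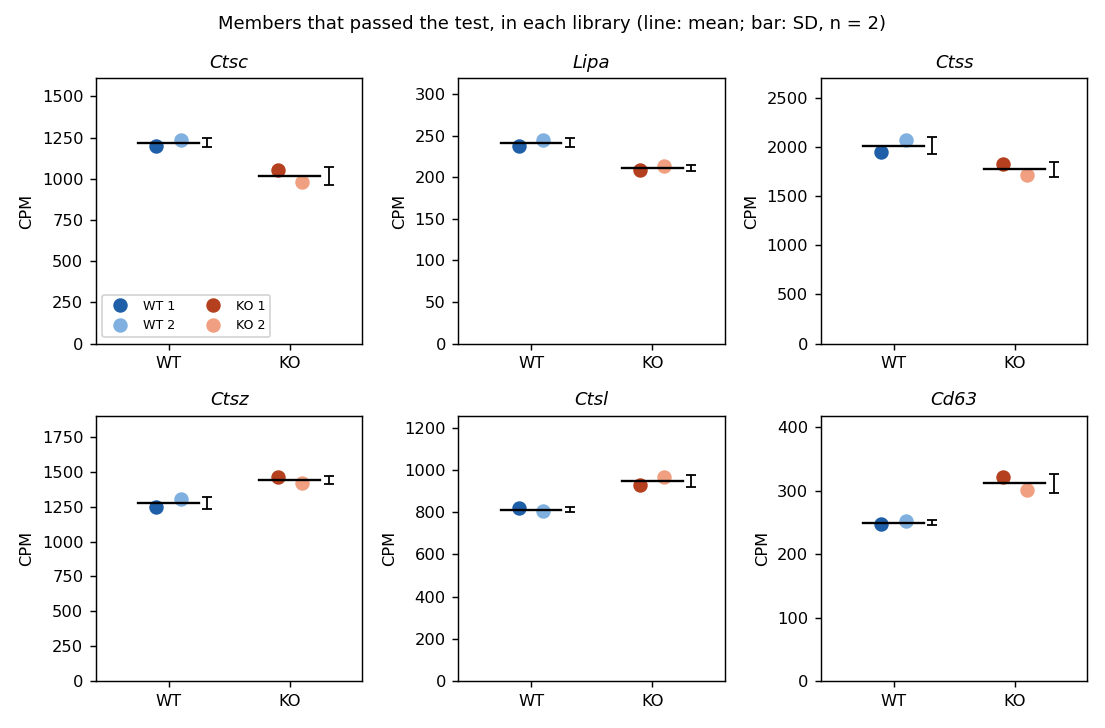
CPM (TMM factors, axis from 0) in each library for the 6 genes that passed, with the mean of each group as a line and the SD (n = 2) as a bar. Both KO libraries lie below both WT libraries for Ctsc, Lipa and Ctss and above them for Ctsz, Ctsl and Cd63, with folds from 1.13 to 1.25.

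None of the 3 proteases of other classes passed (edgeR, also 0 at an unadjusted p under 0.05), against 21.2% of all tested genes. Cathepsin D, the main aspartic protease of lysosomes, was at 1723 and 1719 CPM in WT and 1619 and 1710.4 CPM in KO. KO replicate 1 was the lowest and KO replicate 2 lay close to WT, and the log2 fold change was -0.048 (interval -0.16 to 0.064, edgeR adjusted p = 0.572). Cathepsin A (Ctsa), a serine carboxypeptidase that also shields Neu1 and Glb1 from degradation, was at 757 and 816 CPM in WT and 801 and 731 CPM in KO. Its groups overlapped (log2 fold change -0.037, edgeR adjusted p = 0.725), and it shares exon sequence with Neurl2 and Pltp. The tripeptidyl peptidase gene Tpp1 had a log2 fold change of -0.0096 (edgeR adjusted p = 0.930).

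Glycosidases, which take apart glycogen, glycolipids and glycosaminoglycans, also held 0 of 8 genes past the test, against 21.2% of all tested genes. At an unadjusted p under 0.05 (edgeR), 1 was higher and 0 were lower. Acid alpha-glucosidase (Gaa), which degrades glycogen, was at 100.2 and 103 CPM in WT and 106 and 125 CPM in KO. KO replicate 2 was the highest, and the log2 fold change of 0.19 did not pass (edgeR adjusted p = 0.126). It did pass without KO replicate 1 (edgeR adjusted p = 0.00269, log2 fold change 0.30), and scaling by library totals alone gave 0.27 on the log2 scale, which passed too (edgeR adjusted p = 0.0264). Alpha-galactosidase (Gla) was at 92.3 and 91.9 CPM in WT and 94.6 and 107 CPM in KO, again with KO replicate 2 the highest. Its log2 fold change was 0.13 (edgeR adjusted p = 0.253, or 0.0483 without KO replicate 1). The alpha subunit of beta-hexosaminidase (Hexa), which clears GM2 ganglioside, was at 377 and 386 CPM in WT and 359.6 and 357 CPM in KO. These did not overlap, with a log2 fold change of -0.090 (edgeR adjusted p = 0.264). Beta-glucuronidase (Gusb) was at 275 and 286 CPM in WT and 299 and 295 CPM in KO, with a log2 fold change of 0.081 (edgeR adjusted p = 0.337, or 0.0420 with library totals alone). The other four, Glb1, Man2b1, Naglu and Neu1, had log2 fold changes of 0.0097, -0.082, -0.052 and 0.043 (edgeR adjusted p = 0.956, 0.329, 0.769 and 0.789). Hexa shares exon sequence with Tmem202, and Glb1 with Tmppe.

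Among 5 genes of lipid breakdown and sterol export, 1 was lower and 0 were higher (edgeR, also 0 higher at an unadjusted p under 0.05). That is 20%, against 21.2% of all tested genes. Lysosomal acid lipase (Lipa), which frees cholesterol and fatty acids from lipoprotein lipids, was at 238 and 245 CPM in WT and 209 and 213 CPM in KO. The groups did not overlap. It fell 1.14-fold (log2 fold change -0.19, interval -0.31 to -0.074, edgeR adjusted p = 0.0254). With another scaling or a library left out, that call was lost with library totals alone and without WT replicate 1, WT replicate 2 or KO replicate 1 (edgeR adjusted p = 0.182, 0.0835, 0.193 and 0.0708), within a range of 0.0231 to 0.193. Lipa lies on chromosome 19 from 34492318 to 34527474, minus strand. Prosaposin (Psap), the precursor of the saposins that present lipids to their hydrolases, was at 1664 and 1575 CPM in WT and 1441 and 1510.2 CPM in KO. Its KO libraries were below WT, with a log2 fold change of -0.13 that did not pass (edgeR adjusted p = 0.0971). Acid ceramidase (Asah1) was at 220.2 and 221 CPM in WT and 205 and 207 CPM in KO, and its log2 fold change of -0.098 did not pass either (edgeR adjusted p = 0.238). Of the pair that exports cholesterol from the lysosome, the soluble Npc2 was at 507 and 504 CPM in WT and 501 and 479 CPM in KO. Its log2 fold change was -0.045 and that of the membrane partner Npc1 was -0.0089 (edgeR adjusted p = 0.612 and 0.959), and Npc1 shares exon sequence with Rmc1.

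Cd63 had the largest change of the 35 genes. This tetraspanin of late endosomes, lysosomes and secretory granules was at 247 and 253 CPM in WT and 322 and 301 CPM in KO. The KO libraries lay above WT with no overlap. It rose 1.25-fold (log2 fold change 0.32, interval 0.19 to 0.44, edgeR adjusted p = 0.00167) and passed under all 12 alternatives. Cd63 lies on chromosome 10 from 128900989 to 128912822, plus strand, and reads could be split with the pseudogene Cd63-ps, so its level is uncertain. Lamp2, a glycoprotein that coats the lysosomal membrane and serves chaperone-mediated autophagy, was at 332 and 331 CPM in WT and 298 and 328 CPM in KO. KO replicate 1 was the lowest, and the log2 fold change was -0.082 (edgeR adjusted p = 0.376). Scarb2, the receptor that carries beta-glucocerebrosidase to the lysosome, had a log2 fold change of -0.036 (edgeR adjusted p = 0.804). The rises of Cd63, Ctsl and Ctsz and the falls of Ctsc, Ctss and Lipa stood beside higher neutrophil marker sums and lower T cell marker sums. Dendritic cell, mast cell and B cell marker sums were also higher in the same libraries. Of 16 monocyte and macrophage markers, 4 were higher and 3 lower. The part of any of those cells in the changes of these genes was not tested.

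Of the 5 proton pump genes in the list, 0 passed the test (edgeR, also 0 at an unadjusted p under 0.05), against 21.2% of all tested genes. Atp6v0d1, the subunit that joins the membrane sector to the central stalk, was at 172 and 192 CPM in WT and 204 and 192 CPM in KO. WT replicate 1 was low and the groups overlapped, with a log2 fold change of 0.12 (interval -0.026 to 0.26, edgeR adjusted p = 0.243, or 0.0405 with library totals alone). The accessory subunit gene Atp6ap1 was at 398 and 404 CPM in WT and 413 and 416 CPM in KO, with a log2 fold change of 0.047 (edgeR adjusted p = 0.580). Atp6v1b2, a subunit of the part that binds ATP, was at 261 and 276 CPM in WT and 268 and 253 CPM in KO, and its groups overlapped (log2 fold change -0.045, edgeR adjusted p = 0.647). The catalytic subunit gene Atp6v1a and the proteolipid subunit gene Atp6v0c had log2 fold changes of 0.029 and 0.0064 (edgeR adjusted p = 0.779 and 0.955). Atp6v0c has 2 named pseudogenes among which reads could be split. Over the 5 genes the confidence bounds ran from -0.17 to 0.26 on the log2 scale.

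Neither the transcription factor nor the channel of the list passed. Tfeb, which drives lysosomal gene expression when it enters the nucleus, was at 22.2 and 25.3 CPM in WT and 26.4 and 20.9 CPM in KO, or 526 to 701 counts. Both WT libraries lay between the KO libraries, with a log2 fold change of -0.0075 (interval -0.31 to 0.30, edgeR adjusted p = 0.980). TFEB is regulated largely by its place in the cell, which RNA levels do not show. Mcoln1, the calcium channel that lies upstream of TFEB activation, was at 52.8 and 50.3 CPM in WT and 62.1 and 57.0 CPM in KO. Both KO libraries were higher, but the log2 fold change of 0.21 did not pass (edgeR adjusted p = 0.116), except with library totals alone or without KO replicate 2 (edgeR adjusted p = 0.0282 and 0.0430). Progranulin (Grn), a secreted and lysosomal protein cut into granulins by cathepsins, was at 1211 and 1162 CPM in WT and 1143 and 1255 CPM in KO. Its KO libraries lay on either side of WT (log2 fold change 0.015, edgeR adjusted p = 0.892).

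Beyond the 35 genes, 128 others of the lysosome were examined, of which 123 were listed and 121 tested. Of these, KO libraries had 8 higher and 18 lower, or 21.5%, close to the 21.2% of all tested genes. The counts were 4 and 11 without WT replicate 1, 5 and 9 without WT replicate 2, and 17 and 13 with library totals alone. These genes included larger changes than any of the 35. They are given by list, since the lists differ in what their genes do.

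Other hydrolases and their cofactors had 7 lower and 0 higher of 35 (edgeR, with 1 higher and 9 lower at an unadjusted p under 0.05, and a median log2 fold change of -0.10). That is 20% called, close to the 21.2% of all tested genes (10.1% higher and 11.0% lower). Arylsulfatase B (Arsb), which removes sulfate from dermatan and chondroitin chains, was at 86.7 and 81.4 CPM in WT and 31.4 and 36.2 CPM in KO. The groups were far apart, a fall of 2.49-fold (edgeR adjusted p = 7.84e-07). Cathepsin W (Ctsw), a cysteine protease found mainly in CD8 T cells and natural killer cells, was at 187 and 190.4 CPM in WT and 126 and 124 CPM in KO. It fell 1.51-fold (log2 fold change -0.60, edgeR adjusted p = 1.35e-05), although it shares exon sequence with Fibp on the opposite strand. Pld3, a nuclease of the lysosome, fell 1.22-fold (log2 fold change -0.29, edgeR adjusted p = 0.00178). Gm2a, the activator protein for GM2 breakdown and the most abundant of this list per length, had a log2 fold change of -0.062 (edgeR adjusted p = 0.471). Naaa, Ggh and Ids, named after their values were seen, also fell, with log2 fold changes of -0.27, -0.39 and -0.57 (edgeR adjusted p = 0.00635, 0.00816 and 0.0414).

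Inhibitors of cysteine cathepsins moved in both directions, with 2 higher and 2 lower of 5 tested. That is 80% of a small list, against 21.2% of all tested genes. Cystatin F (Cst7), which enters lysosomes and granules and restrains cathepsin C, was at 218 and 204 CPM in WT and 94.5 and 106 CPM in KO. Both KO libraries were far below both WT libraries, a fall of 2.10-fold (log2 fold change -1.07, interval -1.22 to -0.92, edgeR adjusted p = 4.08e-07). Cystatin C (Cst3), a secreted inhibitor and the most abundant of the list per length, was at 1209.7 and 1237 CPM in WT and 1099 and 1098 CPM in KO. It fell 1.11-fold (edgeR adjusted p = 0.0431), but among other scalings and left-out libraries the call was lost with upper quartile factors, with library totals alone and when any of the 4 libraries was left out (edgeR adjusted p from 0.0510 to 0.349). The neutrophil stefin genes Stfa2l1 and Stfa1 rose by 2.10 and 2.32 on the log2 scale (edgeR adjusted p = 0.000180 and 0.0277). Both rested on few counts. Stfa2l1 had 50 and 43 counts in WT and 190 and 251 in KO, and Stfa1 had 7 and 7 in WT and 28 and 50 in KO. Their near-identical paralogs make both uncertain, and Stfa1 did not pass without WT replicate 1, WT replicate 2 or KO replicate 2 (edgeR adjusted p = 0.180, 0.178 and 0.127). Stefin B (Cstb), a cytosolic inhibitor, had a log2 fold change of -0.0035 (edgeR adjusted p = 0.977). The fall of Ctsw and Cst7 stood beside lower T cell marker sums and the rise of the stefins beside higher neutrophil marker sums, and the part of those cells in them was not tested.

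Genes that tag and sort lysosomal enzymes had 2 higher and 5 lower of 22, or 31.8%, against 21.2% of all tested genes (10.1% higher and 11.0% lower). Ap3b1, a subunit of the adaptor complex that delivers cargo to lysosomes and lytic granules, was at 161 and 152 CPM in WT and 98.4 and 95.4 CPM in KO. It fell 1.61-fold (log2 fold change -0.69, edgeR adjusted p = 8.35e-06). Gnptab, which encodes the enzyme that begins the mannose 6-phosphate tag, was at 70.4 and 66.1 CPM in WT and 47.4 and 42.9 CPM in KO, with no overlap, and fell 1.51-fold (edgeR adjusted p = 0.000452). The adaptor gene Gga2 rose 1.47-fold (edgeR adjusted p = 0.00430, or 0.0634 without WT replicate 1). The receptor for the tag, M6pr, and the adaptor subunit gene Ap1s1, the most abundant of this list per length, had log2 fold changes of 0.040 and 0.099 (edgeR adjusted p = 0.659 and 0.292).

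Other membrane proteins had 1 higher and 2 lower of 24, or 12.5%, against 21.2% of all tested genes. Laptm4b, a membrane protein of late endosomes, rose 1.49-fold (edgeR adjusted p = 0.00136). Laptm5, a lysosomal protein of blood cells that limits receptor levels in lymphocytes, was at 1857 and 1853 CPM in WT and 1501 and 1603 CPM in KO. It fell 1.20-fold (edgeR adjusted p = 0.00396). The nucleoside transporter gene Slc29a3 fell 1.33-fold (edgeR adjusted p = 0.0109), a call lost without WT replicate 2. Cd68, a macrophage lysosomal glycoprotein and the most abundant of this list per length, was at 804 and 841 CPM in WT and 888 and 841 CPM in KO. Its groups overlapped (log2 fold change 0.072, edgeR adjusted p = 0.394, or 0.0496 with library totals alone).

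The remaining proton pump subunits had 1 higher and 1 lower of 15 tested, or 13.3%, against 21.2% of all tested genes. Atp6v0d2, the form of the d subunit found in osteoclasts and macrophages, was at 37.7 and 44.0 CPM in WT and 63.3 and 55.3 CPM in KO. KO exceeded WT in both libraries, a rise of 1.45-fold (log2 fold change 0.54, edgeR adjusted p = 0.00301). Atp6v0a2 fell 1.18-fold (edgeR adjusted p = 0.0254), a call lost with library totals alone and when either WT library was left out (edgeR adjusted p = 0.124, 0.215 and 0.0591). Tcirg1, Atp6v1g1 and Atp6v1f had log2 fold changes of -0.16, 0.17 and 0.059 (edgeR adjusted p = 0.0628, 0.0642 and 0.570). The first did pass without KO replicate 2 (edgeR adjusted p = 0.0243), and the second without KO replicate 2, with library totals alone and with a stricter filter (edgeR adjusted p = 0.0206, 0.00827 and 0.0477). Genes that control lysosomes through transcription and mTORC1 had 2 higher and 1 lower of 20, or 15%, against 21.2% of all tested genes. Mitf, a relative of Tfeb, was at 18.3 and 19.5 CPM in WT and 12.0 and 13.4 CPM in KO and fell 1.49-fold (edgeR adjusted p = 0.0151). Rptor, a subunit of mTORC1, rose 1.29-fold (edgeR adjusted p = 0.0167). The GTPase gene Rragd rose by 1.11 on the log2 scale from 2.66 and 1.80 CPM in WT to 4.78 and 4.85 CPM in KO (edgeR adjusted p = 0.0251). Of these 3, Mitf and Rptor missed the threshold when WT replicate 1 was left out (edgeR adjusted p = 0.0622 and 0.124), as did Mitf, Rptor and Rragd when WT replicate 2 was (edgeR adjusted p = 0.123, 0.0613 and 0.208). Lamtor5 and Lamtor2, the most abundant of this list per length, had log2 fold changes of -0.022 and -0.014 (edgeR adjusted p = 0.852 and 0.929).

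**Figure D4:**
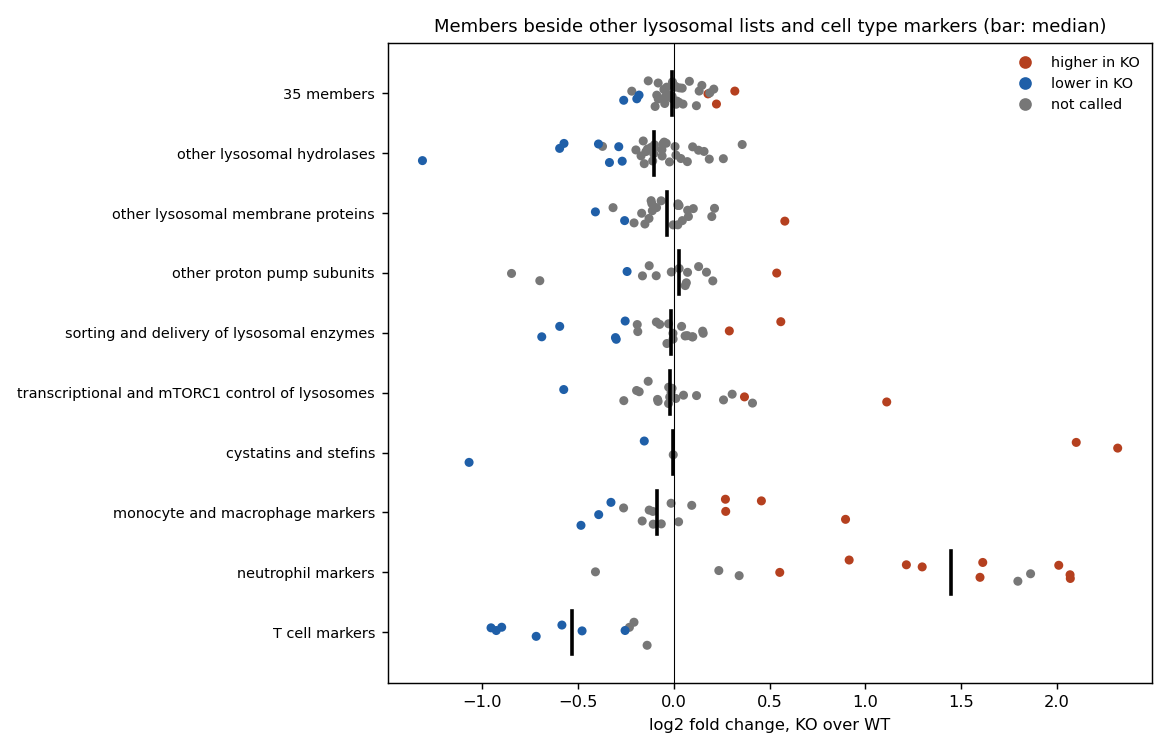
Log2 fold change, KO over WT, of every tested gene in the 35 and in the other lysosomal lists, with markers of 3 cell types below (red, higher; blue, lower; bar, median). The 35 genes lie between -0.26 and 0.32, with a median of -0.0075, while the T cell markers have a median of -0.53 and the neutrophil markers one of 1.45.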

How the data were processed

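Each library had 1 deposited table of gene symbols with a whole-number count and an FPKM value, per the file headers. Per the submitters' processing notes, the tools were DESeq2, edgeR, featureCounts, Bowtie2 and Trim Galore 0.4.4, with the build mm10 and no roles stated. The annotation used and the strand setting were not given in the sources used here. Hence the values of genes with shared exon sequence are uncertain, also where only the overlap is named above. Exons of Ctsd and Grn overlap those of Gm49369 and Fam171a2, which are not among the listed genes. Every listed gene had at least 20 counts over the 4 libraries. The deposited FPKM, scaled by the authors, were used only for levels between genes of 1 library and their order, and entered no test.

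The test was edgeR's quasi-likelihood F test (version 4.0.16, R 4.3.3) with TMM factors and robust dispersions. Genes passed filterByExpr (minimum count 10, minimum total 15), and Benjamini-Hochberg adjustment ran over 13358 genes with a threshold of 0.05. Each standard error was derived from the F statistic. With 2 libraries a group, an exact permutation test of 1 value could not go below p = 0.333 (two-sided), so none was used. Replicates of a group exceeded counting noise (chi-square per degree of freedom 7.75 for WT and 10.1 for KO). The 35 genes and the other lists were chosen with earlier results of these data known. All 35 are named. Libraries are written out for those with the smallest p (3 in role classes of 5 or more, otherwise 2) and the 2 highest by mean FPKM per class, plus a few named after their values were seen (Ctsh, Ctsk and Tfeb). In each other lysosomal list the 3 genes with the smallest p and the 2 highest by FPKM are named, and in each marker list the 2 highest by FPKM. A few more are marked in the text as named after their values were seen. Tmem55b was read as Pip4p1, its symbol in the files. Alternatives were RLE and upper quartile factors, library totals alone, no filter, at least 5 CPM in 2 libraries, DESeq2 1.42.0, limma-voom (limma 3.58.1), a block for replicate number, omission of each library, and a threshold of 0.1. Running them on the other lysosomal genes and markers was added after the data were seen. Gene positions are from GENCODE M21 (GRCm38), in which all 35 were found. The result for 1 gene of the other lysosomal lists is not reported here, although the gene is in the counts.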

Additional observations from a re-analysis of the deposited data

How the results depend on the processing

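The 6 calls among the 35 genes kept their direction under all 12 alternatives, and the largest log2 fold change of any of the 35 under an alternative was 0.40 in size (Cd63, library totals alone). RLE and upper quartile factors, both filters, DESeq2 and limma-voom each gave 3 higher and 3 lower, and a threshold of 0.1 gave 4 and 4. Library totals alone gave 8 higher and 1 lower with a median of 0.078, which is close to the shift of all genes (0.082). Leaving out 1 library gave 1 to 4 higher and 1 to 3 lower of the 35, 1545 to 3392 called genes in all, and, for the other lysosomal genes, 4 to 12 higher and 9 to 21 lower, or 17 higher with library totals alone. With fewer samples the remaining library of a group is assumed to vary like the others.

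The labels do not say that equal replicate numbers share an animal, and deviations of same-numbered libraries did not go together (correlation -0.031). With the replicate block 2 of the 35 were higher and 1 lower (Ctsl, Cd63 and Ctsc), against 2915 called genes in all. Ctss, Ctsz and Lipa had edgeR adjusted p of 0.0985, 0.109 and 0.0810 in that fit, and Cst3 and Tyrobp 0.179 and 0.108, while Blnk passed (0.0285).

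Signs changed for 18 of the 29 genes that did not pass. With library totals alone, log2 fold changes turned to 0.048 (Ctsa), 0.037 (Ctsd), 0.076 (Tpp1), 0.0033 (Man2b1), 0.033 (Naglu), 0.076 (Npc1), 0.040 (Npc2), 0.0029 (Lamp2), 0.050 (Scarb2), 0.040 (Atp6v1b2), 0.078 (Tfeb), 0.024 (Gm2a), 0.063 (Lamtor5), 0.071 (Lamtor2), 0.082 (Cstb) and 0.070 (Lyz2). With upper quartile factors Tfeb turned to 0.00049 and Cstb to 0.0045, and with the stricter filter Cstb to 0.00045. Leaving out 1 library gave log2 fold changes of -0.030 to 0.054 (Ctsb), -0.039 to 0.087 (Lgmn), -0.11 to 0.026 (Ctsa), -0.045 to 0.024 (Tpp1), -0.097 to 0.11 (Glb1), -0.21 to 0.089 (Naglu), -0.083 to 0.16 (Neu1), -0.093 to 0.070 (Npc1), -0.12 to 0.041 (Scarb2), -0.038 to 0.048 (Atp6v0c), -0.011 to 0.071 (Atp6v1a), -0.18 to 0.15 (Tfeb), -0.055 to 0.081 (Grn), -0.025 to 0.14 (Atp6v1f), -0.00047 to 0.078 (M6pr), -0.060 to 0.017 (Lamtor5), -0.13 to 0.12 (Lamtor2), -0.062 to 0.057 (Cstb), -0.064 to 0.032 (Lyz2), -0.0065 to 0.25 (Col3a1) and -0.089 to 0.41 (Foxp3).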
